A study of Mus musculus with 18 samples.

Results

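The receptors that bind the Fc part of IgG were followed across the macrophages of the mouse synovium, the tissue that lines joints. The set holds 6 of the 24421 genes listed: the activating receptors *Fcgr1* (FcγRI), *Fcgr3* (FcγRIII) and *Fcgr4* (FcγRIV), the inhibitory receptor *Fcgr2b* (FcγRIIb), the shared signalling chain *Fcer1g* (FcRγ) and the neonatal receptor *Fcgrt* (FcRn heavy chain). The rule for membership was the gene name, with no threshold on a measured value. All 6 passed the filter on low counts, *Fcgr4* only through the groups where it was higher. RNA was sequenced in bulk from macrophages of wild-type C57BL/6 mice, sorted by surface markers into LYVE1+CX3CR1+, MHCII+CD11c- and MHCII+CD11c+ subsets. Mice were untreated or had received an immune complex (IC) of ovalbumin and rabbit antibody to ovalbumin into a vein 8 h earlier. All mice were wild type for the receptors, the labels give no age, and no group received antibody or ovalbumin alone. With 3 subsets and 2 treatments there were 6 groups of 3 libraries (18 libraries), and cells from the legs of several mice were pooled for a library.

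Fcγ receptors let macrophages bind IgG that coats an antigen, and crosslinking by immune complexes starts or stops signalling. FcγRI binds single IgG molecules tightly, whereas FcγRIII, FcγRIV and FcγRIIb bind mainly clustered IgG. The activating receptors signal through FcRγ, whose cytoplasmic tail carries an activation motif (ITAM) that recruits the kinase Syk. FcγRIIb carries an inhibitory motif (ITIM) in its own tail, which recruits the phosphatase SHIP1, and the balance of activating to inhibitory receptors sets the threshold for a response to immune complexes. FcRn binds IgG in acidic endosomes and returns it to the cell surface.

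Those opposing signals rest on short stretches of coding sequence, which are shown because the results contrast their 2 genes. The strands below run 5′ to 3′ along the GENCODE M21 transcripts (build GRCm38, minus strand), and capitals mark the tyrosine codons that are phosphorylated. The *Fcer1g* stretch encodes residues 65 to 79 of 86 and is split by an intron within chr1:171229889-171230072, while the *Fcgr2b* stretch lies in a single exon at chr1:170961071-170961088.

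*Fcer1g* ITAM: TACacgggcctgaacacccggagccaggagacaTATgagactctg

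*Fcgr2b* ITIM: atcaccTACtcacttctc

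In the same genome, *Fcgr2b* (chr1:170958617-170976547, minus strand), *Fcgr4* (chr1:171018920-171029761, plus strand), *Fcgr3* (chr1:171051174-171064935, minus strand) and *Fcer1g* (chr1:171229572-171234365, minus strand) are neighbours on chromosome 1. *Fcgr1* lies apart at chr3:96282909-96293969 (minus strand) and *Fcgrt* at chr7:45092990-45103851 (minus strand). *Fcgr2b* and *Fcgr3* are close copies in their IgG-binding part, and the longest run of identical coding bases was 129. It is printed because reads that fall inside it cannot be assigned to either gene. The run crosses an exon boundary in both genes, within chr1:170966674-170968081 for *Fcgr2b* and chr1:171054167-171057792 for *Fcgr3*.

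*Fcgr2b* and *Fcgr3* shared run: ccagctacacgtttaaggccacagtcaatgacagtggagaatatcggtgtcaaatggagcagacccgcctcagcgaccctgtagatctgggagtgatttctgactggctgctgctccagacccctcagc

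Of all windows of 100 bases along the transcripts used, 2.98% of those of *Fcgr2b* and 3.53% of those of *Fcgr3* occurred in the other gene, and no window of 150 bases, the length of 1 read, did. Windows of 100 bases of the other 4 members occurred in no other gene. The handling of multi-mapped reads is not given in the sources used here, so the split between *Fcgr2b* and *Fcgr3* carries that uncertainty. *Fcgr2b* also overlaps an annotated gene on the opposite strand, Gm38204, and the strand setting of the counting is not given either.

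The RefSeq promoters (GRCm38.p6) of the receptors were searched over the 250 bases before the start for 3 motifs on both strands, namely the interferon-gamma activation site GAS (TTCNNNGAA), the interferon-stimulated response element ISRE and a core of the binding site of the macrophage factor PU.1 (GAGGAAG). GAS occurred in 7.02%, ISRE in 2.98% and the PU.1 core in 10.6% of all 32851 promoters. *Fcgr1* held GAS 109 to 101 bases and the PU.1 core 56 to 50 bases before its start. *Fcgr4* held ISRE 73 to 64 bases and the PU.1 core 23 to 17 bases before its start. *Fcgr3* held the PU.1 core in both of its listed promoters, which overlap, so that both matches are the same site. *Fcgr2b*, *Fcer1g* and *Fcgrt* held none of these letters in this window. The promoters of *Fcgr1* and *Fcgr4* are shown, with matches in capitals. In the tests given below, edgeR called *Fcgr4* after IC in no single subset. It was called only over the mean of the subsets, a contrast added after the data had been seen. No matches overlapped each other, and a match is a description of letters, not of binding.

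*Fcgr1*, chr3:96293970-96294219, minus strand: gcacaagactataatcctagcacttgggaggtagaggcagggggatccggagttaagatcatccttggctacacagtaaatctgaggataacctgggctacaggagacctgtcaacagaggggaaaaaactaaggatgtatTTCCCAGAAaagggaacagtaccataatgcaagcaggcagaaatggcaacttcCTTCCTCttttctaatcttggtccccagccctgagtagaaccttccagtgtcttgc

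*Fcgr4*, chr1:171018676-171018925, plus strand: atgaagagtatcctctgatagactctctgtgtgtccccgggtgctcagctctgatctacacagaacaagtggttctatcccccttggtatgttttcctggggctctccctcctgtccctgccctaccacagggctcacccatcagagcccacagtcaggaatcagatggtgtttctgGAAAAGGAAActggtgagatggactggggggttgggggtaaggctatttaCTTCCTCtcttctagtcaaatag

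Library totals ranged from 245903 to 2172358 counts, and the 2 smallest libraries, with 245903 and 381217 counts, were both MHCII+CD11c- after IC. Levels are given as CPM, the count scaled to the library total of the tested genes with TMM normalization. The sorting genes followed the labels in untreated mice, with *Lyve1* (a hyaluronan receptor) at a mean of 2372 CPM in LYVE1+CX3CR1+ macrophages against 796 and 378 CPM, and *Itgax* (CD11c) at 269 CPM in MHCII+CD11c+ macrophages against 6.02 and 1.71 CPM. All 8 macrophage markers were detected in every group. Transcripts of other leukocytes differed between subsets: the summed level of 10 neutrophil markers was 18.9 to 24.8 CPM in untreated LYVE1+CX3CR1+ libraries, with *S100a8*, *Camp*, *Ngp* and *Ltf* at 0, against 920 to 2103 CPM in untreated MHCII+CD11c- libraries and 129 to 707 CPM in untreated MHCII+CD11c+ libraries. In bulk RNA, fewer cells of a type and less RNA per cell cannot be told apart.

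All 6 members were transcribed in each subset except *Fcgr4*, which was at the counting floor in untreated LYVE1+CX3CR1+ macrophages. Divided by transcript length, *Fcgrt* had the highest mean level in untreated LYVE1+CX3CR1+ macrophages (499 CPM per kb), followed by *Fcer1g* (427), *Fcgr3* (315), *Fcgr2b* (162) and *Fcgr1* (22.7). In untreated MHCII+CD11c- macrophages *Fcer1g* (388 CPM per kb) and *Fcgr3* (382) stood above *Fcgrt* (299) and *Fcgr2b* (255), with *Fcgr1* at 31.4 and *Fcgr4* at 9.89 CPM per kb. Within the 4 IgG receptors that signal, *Fcgr3* made up 63.0% ± 2.40 (SD, n = 3) of the summed level per length in untreated LYVE1+CX3CR1+ macrophages, 56.3% ± 3.72 for the MHCII+CD11c- subset and 55.8% ± 3.45 for the MHCII+CD11c+ subset. *Fcgr2b* held most of the remainder, at 32.3% ± 2.76, 37.7% ± 3.74 and 40.3% ± 3.67 in the same order. Low-affinity receptors thus provided most receptor transcripts in every untreated group, and *Fcgr1* did not exceed 5.04% in any untreated library.

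**Figure D1:**
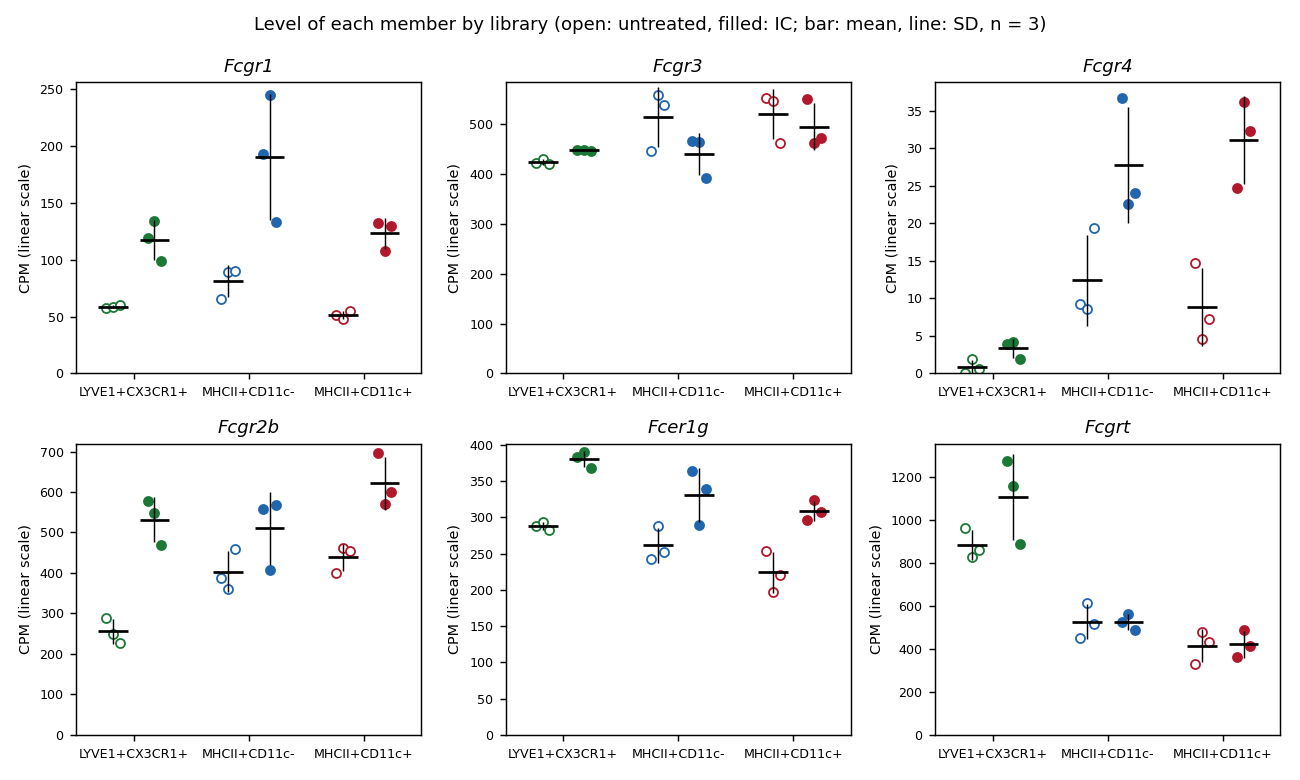
Level of each member in CPM (y axis, linear, from 0) in the 18 libraries, by subset (x axis). Open circles are untreated and filled circles IC libraries, with the mean as a bar and the SD as a line (n = 3). *Fcgr1* was higher after IC in each subset without overlap, *Fcgr2b* was lowest in untreated LYVE1+CX3CR1+ macrophages, *Fcgr4* did not exceed 4.22 CPM in LYVE1+CX3CR1+ macrophages, and *Fcgrt* was highest in that subset.

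To ask how the receptors changed after a systemic immune complex, IC libraries were compared with untreated ones in each subset by edgeR's quasi-likelihood test over all 10550 genes tested, with Benjamini-Hochberg adjustment and a threshold of 0.05. In LYVE1+CX3CR1+ macrophages 2 of 6 members were called, both higher, against 0.464% of all genes called and 0.246% called higher. In MHCII+CD11c- macrophages 1 of 6 was called, higher, against 1.06% and 0.550% of all genes, and in MHCII+CD11c+ macrophages 1 of 6, higher, against 0.673% and 0.483%. The median log2 fold change of the 6 members was 0.70, 0.35 and 0.48 in these subsets, beside -0.02, -0.01 and -0.01 over all genes. *Fcgr1* was called in each of the 3 comparisons and *Fcgr2b* in LYVE1+CX3CR1+ macrophages. IC and untreated libraries did not overlap for 5, 3 and 4 members in the same order, beside 19.1%, 14.2% and 18.5% of all genes. Of 6 sorting genes, 0 were called after IC in LYVE1+CX3CR1+ macrophages. In the MHCII+CD11c- subset 1 was called higher (*Itgax*) and 2 lower (*H2-Ab1* and *H2-Aa*). In the MHCII+CD11c+ subset 2 were called higher (*Lyve1* and *Cx3cr1*) and 0 lower. Whether the sort took the same cells with and without IC was not tested.

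The 3 differences were also averaged in the same fit, a contrast added after the data had been seen. Over the mean of the 3 subsets, 4 of 6 members were called, all higher, against 6.21% of all genes called and 3.12% called higher. *Fcgr1* was higher by 1.14 on the log2 scale (SE 0.12, adjusted p = 2.17e-06), *Fcgr2b* by 0.64 (SE 0.09, adjusted p = 9.74e-05) and *Fcer1g* by 0.40 (SE 0.09, adjusted p = 0.00429). *Fcgr4* was higher by 1.62 (SE 0.36, adjusted p = 0.00712), a fitted value that includes a group at the floor. *Fcgr3* (log2 fold change -0.08, 95% interval -0.25 to 0.09, adjusted p = 0.690) and *Fcgrt* (0.11, interval -0.09 to 0.32, adjusted p = 0.599) did not pass the threshold.

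**Figure D2:**
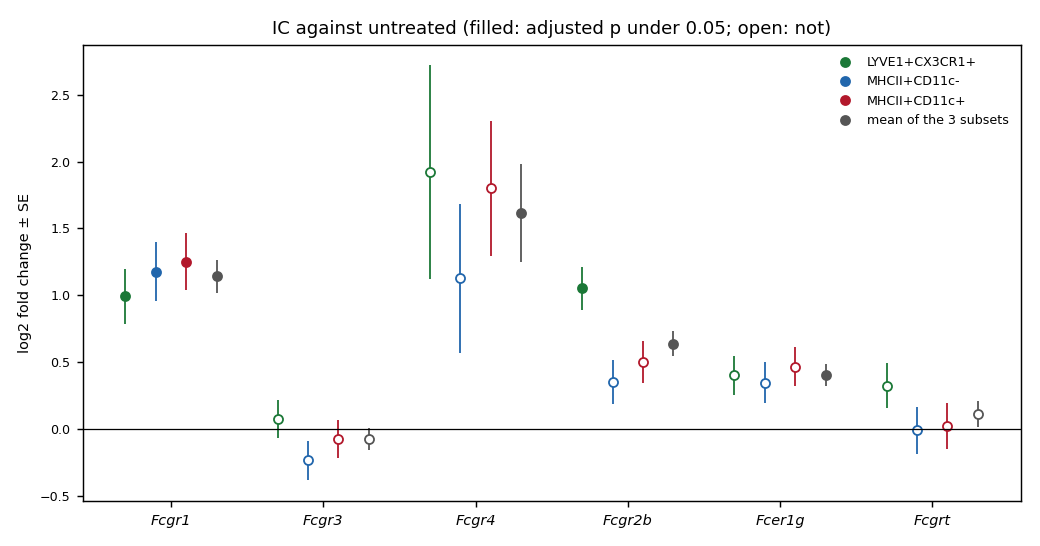
Log2 fold change of IC against untreated libraries (y axis) for the 6 members (x axis) in the 3 subsets and for the mean of the subsets, with the SE as a line. Filled points passed an adjusted p of 0.05. *Fcgr1* was filled in every comparison, *Fcgr2b* in LYVE1+CX3CR1+ macrophages and in the mean, and *Fcgr3* and *Fcgrt* were open in every comparison. The *Fcgr4* values of LYVE1+CX3CR1+ macrophages and of the mean rest on a group at the floor.

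*Fcgr1* encodes the high-affinity receptor, which can hold IgG before an antigen arrives. In LYVE1+CX3CR1+ macrophages its level was 57.3, 58.9 and 60.3 CPM without treatment and 119, 134 and 99.4 CPM after IC. MHCII+CD11c- libraries had 65.1, 89.2 and 89.9 CPM without treatment and 193, 245 and 133 CPM after IC. MHCII+CD11c+ libraries had 51.5, 48.0 and 55.0 CPM without treatment and 133, 108 and 130 CPM after IC. Each IC library stood above each untreated library of its subset, and the untreated values were the closest together in LYVE1+CX3CR1+ macrophages. The level was 1.99-fold higher after IC in LYVE1+CX3CR1+ macrophages (log2 fold change 0.99, SE 0.21, adjusted p = 0.0214). For MHCII+CD11c- macrophages the rise was 2.26-fold (1.18, SE 0.22, adjusted p = 0.00685), and for MHCII+CD11c+ macrophages it was 2.38-fold (1.25, SE 0.21, adjusted p = 0.00336, edgeR). The call in MHCII+CD11c+ macrophages held under every alternative run.

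The LYVE1+CX3CR1+ call of *Fcgr1* did not hold when 1 library was left out in 5 of 6 cases. The edgeR adjusted p was 0.130, 0.0872 and 0.104 without untreated replicates 1, 2 and 3, and 0.0936 and 0.174 without IC replicates 1 and 2, while the log2 fold change stayed between 0.89 and 1.10. In MHCII+CD11c- macrophages, the 2 highest IC values came from the 2 smallest libraries, with 74 and 65 counts, and without both the log2 fold change of *Fcgr1* was 0.72 (adjusted p = 0.201). Fitted to the libraries of that comparison alone, it was 1.21 (adjusted p = 0.133). The untreated levels ran from MHCII+CD11c- (81.4 ± 14.1 CPM, SD, n = 3) over LYVE1+CX3CR1+ (58.8 ± 1.51) to MHCII+CD11c+ (51.5 ± 3.49), with ranges that did not overlap, and no untreated difference of *Fcgr1* was called.

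*Fcgr3* encodes the receptor through which clustered IgG activates most mouse myeloid cells. Untreated LYVE1+CX3CR1+ libraries had 421, 431 and 420.0 CPM, and IC libraries 448, 449 and 446 CPM. The MHCII+CD11c- libraries had 446, 559 and 538 CPM without treatment and 465, 463 and 392 CPM after IC. The MHCII+CD11c+ libraries had 553, 546 and 462 CPM without treatment and 549, 462 and 472 CPM after IC. In LYVE1+CX3CR1+ macrophages the IC values stood just above the untreated ones, and in both MHCII+ subsets the groups overlapped. No comparison called *Fcgr3*, with log2 fold changes after IC of 0.08 (95% interval -0.21 to 0.37), -0.23 (-0.54 to 0.07) and -0.08 (-0.37 to 0.22) in LYVE1+CX3CR1+, MHCII+CD11c- and MHCII+CD11c+ macrophages (adjusted p = 0.958, 0.482 and 0.954, edgeR). Those intervals leave out a 1.5-fold rise of *Fcgr3* in each subset. Its 6 group means lay between 424 and 520.1 CPM, and their span of 0.289 on the log2 scale was the narrowest of the 6 members on that scale.

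*Fcgr4* encodes the activating receptor that in the mouse binds IgG2a and IgG2b complexes and is made by monocytes, macrophages and neutrophils. Untreated LYVE1+CX3CR1+ libraries held 0, 3 and 1 counts (0, 1.88 and 0.538 CPM), and IC libraries of that subset 7, 8 and 4 counts (3.95, 4.22 and 1.92 CPM). In MHCII+CD11c- libraries the level was 9.30, 8.56 and 19.4 CPM without treatment and 36.6, 22.6 and 24.0 CPM after IC. In MHCII+CD11c+ libraries it was 14.7, 4.60 and 7.23 CPM without treatment and 24.7, 36.2 and 32.3 CPM after IC. Every IC library was higher than every untreated library of its subset, and every LYVE1+CX3CR1+ library was lower than every library of the other 2 subsets. Against a floor of 3 counts per untreated library, the mean IC level in LYVE1+CX3CR1+ macrophages was 1.83-fold, and the IC comparison there was not called (adjusted p = 0.452, edgeR).

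The log2 fold change of *Fcgr4* after IC was 1.13 for MHCII+CD11c- macrophages (SE 0.56, adjusted p = 0.349) and 1.80 for the MHCII+CD11c+ subset (SE 0.51, adjusted p = 0.121), neither past the threshold with edgeR. The latter was past it with DESeq2 (adjusted p = 0.0305), with no filter on low counts (0.0492) and in a fit to the libraries compared (0.0434). Untreated LYVE1+CX3CR1+ macrophages were called lower in *Fcgr4* than both other subsets (adjusted p = 0.000900 against MHCII+CD11c- and 0.00113 against MHCII+CD11c+, edgeR), whose means were 6.75-fold and 4.81-fold the same floor. After IC, LYVE1+CX3CR1+ macrophages were 8.09-fold lower than MHCII+CD11c- (log2 fold change -3.02, SE 0.59, adjusted p = 0.00112) and 9.18-fold lower than MHCII+CD11c+ macrophages (-3.20, SE 0.56, adjusted p = 0.000121). These 4 calls held under every alternative that could test *Fcgr4*. The gene passed the filter on low counts only through the MHCII+ subsets, as LYVE1+CX3CR1+ libraries held at most 8 counts. The 4 calls thus rest on a gene kept for its level in the MHCII+ subsets. No difference in *Fcgr4* between the MHCII+ subsets was called (untreated log2 fold change of MHCII+CD11c+ against MHCII+CD11c- -0.49, 95% interval -1.60 to 0.62).

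Neutrophils and monocytes also express *Fcgr4*, and their markers are given beside it. Of 10 neutrophil markers tested, all 10 were lower in LYVE1+CX3CR1+ than in MHCII+CD11c- macrophages with and without IC, and 8 of 10 without IC and 10 of 10 after it against MHCII+CD11c+ macrophages. After IC, 3 of 10 (*S100a8*, *Mmp8* and *Csf3r*) were called higher in MHCII+CD11c+ macrophages and 0 of 10 in each other subset by edgeR. In the MHCII+CD11c+ subset the summed level was 1120 to 2506 CPM after IC against 129 to 707 CPM without treatment. It was 1563 to 4542 CPM in MHCII+CD11c- and 19.2 to 183 CPM in LYVE1+CX3CR1+ libraries after IC. Over the mean of the 3 subsets, where *Fcgr4* was called, 6 of 10 neutrophil markers and 5 of 8 monocyte markers were called higher. Of the monocyte markers, *Plac8* and *Ms4a4c* were called higher after IC in the MHCII+CD11c- subset, *Plac8* and *Vcan* in the MHCII+CD11c+ subset and 0 in the LYVE1+CX3CR1+ subset by edgeR. In LYVE1+CX3CR1+ macrophages 6 of 8 monocyte markers were called lower than in each other subset, with and without IC, whereas *Vcan* was called higher in all 4 of these comparisons and *F13a1* in both against MHCII+CD11c+ macrophages. The summed level of the 8 was 3021 to 3682 CPM in untreated LYVE1+CX3CR1+ libraries, with *Ly6c2* and *Chil3* at 0, 2731 to 3326 CPM in untreated MHCII+CD11c- and 2243 to 2871 CPM in untreated MHCII+CD11c+ libraries. After IC it was 3481 to 3961, 3242 to 3797 and 2418 to 3325 CPM in the same order. The median log2 fold change after IC of the neutrophil markers was 1.60, 0.86 and 2.25 in LYVE1+CX3CR1+, MHCII+CD11c- and MHCII+CD11c+ macrophages. For the monocyte markers it was 1.52, 1.86 and 1.66 in the same order. The part of these transcripts in the level of *Fcgr4* was not tested.

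*Fcgr2b* encodes the inhibitory receptor. LYVE1+CX3CR1+ libraries had 290, 250.1 and 228 CPM without treatment and 578, 547 and 469 CPM after IC. MHCII+CD11c- libraries had 388, 361 and 459 CPM without treatment and 557, 407 and 569 CPM after IC. MHCII+CD11c+ libraries had 399, 463 and 453 CPM without treatment and 696, 569 and 600.1 CPM after IC. The lowest 3 values of the 18 were the untreated LYVE1+CX3CR1+ ones, and after IC that subset reached the range of both others. IC and untreated libraries overlapped only in MHCII+CD11c- macrophages.

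In LYVE1+CX3CR1+ macrophages *Fcgr2b* was 2.08-fold higher after IC (log2 fold change 1.05, SE 0.16, adjusted p = 0.00102, edgeR), and this call held under every alternative run, including each library left out in turn (adjusted p 0.00232 to 0.0228). The *Fcgr2b* log2 difference was 0.35 for the MHCII+CD11c- subset (SE 0.16, adjusted p = 0.312) and 0.50 for the MHCII+CD11c+ subset (SE 0.16, adjusted p = 0.189). The latter was past the threshold with DESeq2 (adjusted p = 0.0300). The response of LYVE1+CX3CR1+ macrophages exceeded that of MHCII+CD11c- by 0.70 (95% interval 0.23 to 1.17) and that of MHCII+CD11c+ by 0.55 (0.09 to 1.02) on the log2 scale, and neither difference passed the adjustment over all genes (adjusted p = 0.614 and 0.99997, edgeR).

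Before treatment, *Fcgr2b* was 1.58-fold lower in LYVE1+CX3CR1+ than in MHCII+CD11c- macrophages (log2 fold change -0.66, SE 0.16, adjusted p = 0.00752) and 1.71-fold lower than in MHCII+CD11c+ macrophages (-0.78, SE 0.16, adjusted p = 0.000644). The first of these calls was lost without MHCII+CD11c- untreated replicate 3 (-0.54, adjusted p = 0.0662) and without LYVE1+CX3CR1+ untreated replicate 3 (-0.57, adjusted p = 0.0653), and the second held throughout. After IC the corresponding log2 fold changes were 0.05 (95% interval -0.29 to 0.38) and -0.22 (-0.55 to 0.10), and neither was called. B cells also express *Fcgr2b*, and 5 of 5 B cell markers tested were lower in LYVE1+CX3CR1+ macrophages than in both other subsets. Their summed level was 0 to 1.62 CPM in untreated LYVE1+CX3CR1+ libraries, with *Cd79b* and *Pax5* at 0, against 204 to 302 CPM in untreated MHCII+CD11c- and 62.5 to 94.5 CPM in untreated MHCII+CD11c+ libraries. After IC the sum was 0 to 2.11 CPM in LYVE1+CX3CR1+, 235 to 354 CPM in MHCII+CD11c- and 74.0 to 92.8 CPM in MHCII+CD11c+ libraries. The untreated log2 difference of *Fcgr2b* between MHCII+CD11c+ and MHCII+CD11c- macrophages was 0.12 (95% interval -0.21 to 0.45). The part of B cell RNA in the level of *Fcgr2b* was not tested in any comparison.

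*Fcer1g* encodes the chain that holds the activating receptors at the surface and carries their ITAM. LYVE1+CX3CR1+ libraries had 288, 293 and 282 CPM without treatment and 383, 390.1 and 368 CPM after IC. MHCII+CD11c- libraries had 243, 288 and 252 CPM without treatment and 363, 289.9 and 338 CPM after IC. MHCII+CD11c+ libraries had 254, 197 and 221 CPM without treatment and 296, 324 and 308 CPM after IC. In each subset all IC values were above all untreated values, by a narrow margin in MHCII+CD11c- macrophages. The log2 fold changes were 0.40 (SE 0.14, adjusted p = 0.315), 0.35 (SE 0.15, adjusted p = 0.279) and 0.46 (SE 0.15, adjusted p = 0.184) in LYVE1+CX3CR1+, MHCII+CD11c- and MHCII+CD11c+ macrophages, none past the threshold with edgeR. DESeq2 called *Fcer1g* higher after IC in LYVE1+CX3CR1+ (adjusted p = 0.0177) and MHCII+CD11c+ macrophages (adjusted p = 0.00829).

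The untreated level of *Fcer1g* was highest in LYVE1+CX3CR1+ macrophages (288 ± 5.63 CPM, SD, n = 3), then MHCII+CD11c- (261 ± 24.0) and MHCII+CD11c+ (224 ± 28.7), and neighbours in that order overlapped. No subset difference was called by edgeR, though that of LYVE1+CX3CR1+ against MHCII+CD11c+ (log2 fold change 0.36, adjusted p = 0.0800) was past the threshold in 5 alternatives, with adjusted p from 0.00953 to 0.0436. Mast cells and neutrophils also express the chain. The summed level of 7 mast cell markers was 1.08 to 53.3 CPM in untreated and 0 to 32.7 CPM in IC libraries of LYVE1+CX3CR1+ macrophages. It was 6.11 to 214 CPM without treatment and 118 to 505 CPM after IC in MHCII+CD11c- libraries, and 8.41 to 86.1 CPM without treatment and 46.3 to 271 CPM after IC in MHCII+CD11c+ libraries. The median log2 fold change after IC of the 6 mast cell markers tested was 1.54 for the MHCII+CD11c- subset, 1.72 for the MHCII+CD11c+ subset and -1.41 for the LYVE1+CX3CR1+ subset, with 0 of 6 called in each by edgeR. The part of these transcripts in the level of *Fcer1g* was not tested.

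*Fcgrt* encodes the heavy chain of FcRn, which pairs with β2-microglobulin. LYVE1+CX3CR1+ libraries had 963, 827 and 861 CPM without treatment and 1278, 1159 and 888 CPM after IC. MHCII+CD11c- libraries had 451, 616 and 518 CPM without treatment and 528, 565 and 489 CPM after IC. MHCII+CD11c+ libraries had 329.9, 481 and 435 CPM without treatment and 364, 488 and 412 CPM after IC. All 6 LYVE1+CX3CR1+ libraries were above all 12 others, and untreated and IC libraries overlapped in every subset.

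Without treatment *Fcgrt* was 1.67-fold higher in LYVE1+CX3CR1+ than in MHCII+CD11c- macrophages (log2 fold change 0.74, SE 0.17, adjusted p = 0.00454) and 2.13-fold higher than in MHCII+CD11c+ macrophages (1.09, SE 0.17, adjusted p = 2.75e-05). After IC the differences were 2.11-fold (1.08, SE 0.18, adjusted p = 0.000144) and 2.62-fold (1.39, SE 0.17, adjusted p = 1.28e-06, edgeR). These 4 calls held under every alternative. The log2 fold change of *Fcgrt* after IC was 0.33 (95% interval -0.02 to 0.67) in LYVE1+CX3CR1+, -0.01 (-0.37 to 0.36) for the MHCII+CD11c- subset and 0.02 (-0.33 to 0.38) for the MHCII+CD11c+ subset, and none was called. *B2m*, which encodes the partner chain, had mean levels between 1132 and 1375 CPM in the 6 groups and was not called after IC.

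Counted over members, the untreated LYVE1+CX3CR1+ subset differed in 3 of 6 from MHCII+CD11c- macrophages (*Fcgr2b* and *Fcgr4* lower, *Fcgrt* higher), against 11.4% of all genes. The same 3 members differed, in the same directions, from MHCII+CD11c+ macrophages, against 21.8% of all genes, and the comparisons share the LYVE1+CX3CR1+ libraries. These counts, and those of the same pairs after IC, include *Fcgr4*, which passed the filter on low counts only through the MHCII+ subsets. The MHCII+ subsets differed in 0 of 6 without treatment (3.49% of all genes) and 0 of 6 after IC (2.84% of all genes). The libraries did not overlap for 5, 6 and 1 untreated members in the order of these comparisons, beside 28.9%, 41.3% and 22.3% of all genes. Between the MHCII+ subsets, edgeR gave 1 member at an unadjusted p under 0.05 without treatment and 1 after IC, *Fcgr1* both times. It was lower in MHCII+CD11c+ macrophages by 0.66 (adjusted p = 0.0985) without treatment and by 0.58 (adjusted p = 0.165) after IC on the log2 scale. Without MHCII+CD11c- untreated replicate 1 the former was -0.80 (adjusted p = 0.0487), and without MHCII+CD11c- IC replicate 3 the latter was -0.82 (adjusted p = 0.0434). DESeq2 called 0 members in both.

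After IC, LYVE1+CX3CR1+ macrophages differed in 3 of 6 members from MHCII+CD11c- macrophages (9.77% of all genes) and in 2 of 6 from MHCII+CD11c+ macrophages (19.7% of all genes). The libraries did not overlap for 3 and 4 members in these comparisons, and for 3 between the MHCII+ subsets after IC, beside 25.1%, 38.0% and 16.8% of all genes. The added member was *Fcgr1*, 1.57-fold lower in LYVE1+CX3CR1+ than in MHCII+CD11c- macrophages (log2 fold change -0.65, SE 0.21, adjusted p = 0.0481), and this call was lost in most alternatives. It was lost without MHCII+CD11c- IC replicate 1 (-0.59, adjusted p = 0.135) or 2 (-0.42, adjusted p = 0.232), and without LYVE1+CX3CR1+ IC replicate 1 (-0.63, adjusted p = 0.130), 2 (-0.73, adjusted p = 0.0712) or 3 (-0.54, adjusted p = 0.182). Without the 2 smallest libraries it was -0.15 (adjusted p = 0.813). The response to IC differed between subsets for 0 of 6 members in each of the 3 pairs, against 0%, 0.00948% and 0.00948% of all genes, with 1, 1 and 0 members at an unadjusted p under 0.05 by edgeR and 0 members called by DESeq2.

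**Figure D3:**
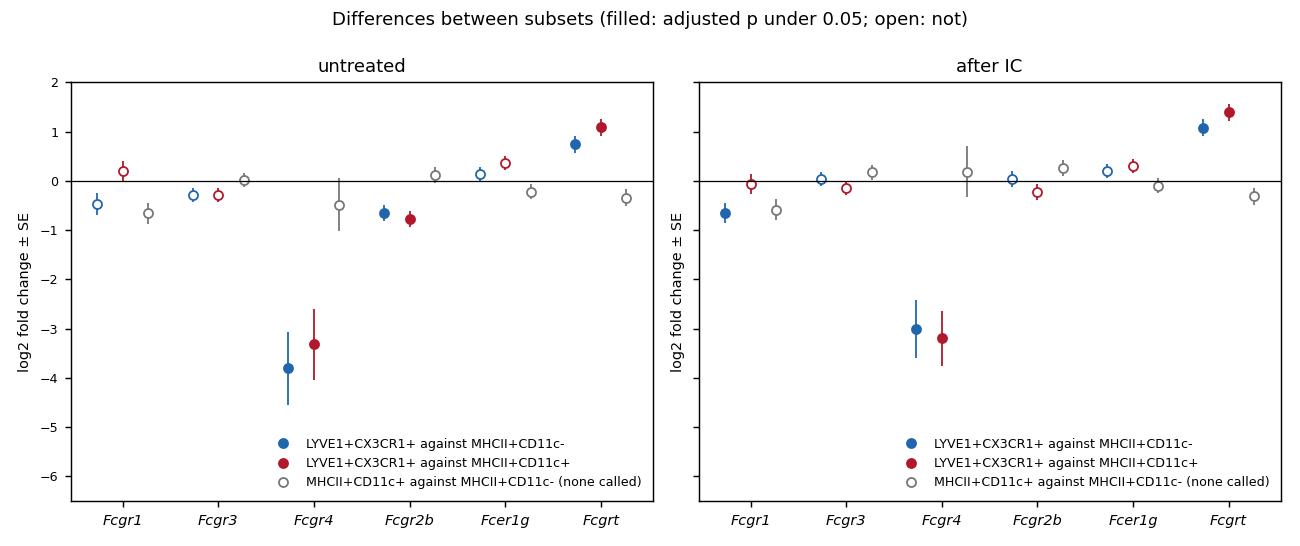
Log2 fold change between subsets (y axis) for the 6 members (x axis), untreated on the left and after IC on the right, with the SE as a line. Filled points passed an adjusted p of 0.05. *Fcgr4* lay between -3.81 and -3.02 and *Fcgrt* above 0 for LYVE1+CX3CR1+ macrophages on both sides, while *Fcgr2b* of that subset was filled, below 0, without treatment and open after IC. The untreated *Fcgr4* values rest on a group at the floor.

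The balance of activating to inhibitory receptors was taken within each library as the counts per base of *Fcgr3* plus *Fcgr4* over those of *Fcgr2b*. *Fcgr1* was left out, because the study takes FcγRIII and FcγRIV as the activating receptors of this ratio. The mean share of *Fcgr1* in the 4 receptors was 4.55%, 4.62% and 2.89% without treatment in LYVE1+CX3CR1+, MHCII+CD11c- and MHCII+CD11c+ macrophages. After IC it was 6.31%, 9.89% and 5.72%, which the ratio does not count. In LYVE1+CX3CR1+ libraries this ratio was 1.70, 2.03 and 2.16 without treatment and 0.917, 0.970 and 1.12 after IC. It was 1.38, 1.84 and 1.43 without treatment and 1.06, 1.40 and 0.860 after IC in MHCII+CD11c- libraries. In MHCII+CD11c+ libraries it was 1.67, 1.39 and 1.21 without treatment and 0.969, 1.03 and 0.989 after IC. Per length, transcripts of *Fcgr3* and *Fcgr4* together outnumbered those of *Fcgr2b* in all 9 untreated libraries. The ratio fell with IC without overlap in LYVE1+CX3CR1+ and MHCII+CD11c+ macrophages. Over the 3 subsets the ratio was 1.58-fold lower after IC (log2 difference -0.66, p = 0.0005, adjusted p over 5 ratio tests 0.00188), in an exact two-sided permutation test within subsets that can reach 0.00025 at the lowest.

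Within a single subset, 3 libraries against 3 cannot give an exact permutation p under 0.1, and the values were 0.1 for LYVE1+CX3CR1+ (1.96-fold lower), 0.2 for MHCII+CD11c- (1.42-fold lower) and 0.1 for the MHCII+CD11c+ subset (1.42-fold lower). Between subsets, over both treatments, the ratio differed by 0.11, 0.24 and -0.12 on the log2 scale for LYVE1+CX3CR1+ against MHCII+CD11c-, LYVE1+CX3CR1+ against MHCII+CD11c+ and MHCII+CD11c+ against MHCII+CD11c-, none past the threshold (exact permutation, adjusted p = 0.470, 0.133 and 0.469). Because *Fcgr4* was at most 3.72% of the summed receptors, the ratio is in the main that of *Fcgr3* to *Fcgr2b*, whose read split is uncertain as described. Their shares after IC were close at the lengths used, with *Fcgr2b* at 46.9% ± 2.25 and *Fcgr3* at 46.4% ± 2.72 in LYVE1+CX3CR1+, 43.3% ± 6.95 and 43.8% ± 3.99 in MHCII+CD11c-, and 47.2% ± 0.686 and 44.0% ± 0.506 in MHCII+CD11c+ macrophages (SD, n = 3). Shares and the size of the ratio depend on the length taken for *Fcgr2b*. Its 3 annotated coding transcripts run from 1462 to 3544 bases, and 1578 was used.

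The supply of the signalling chain was taken as the counts per base of *Fcer1g* over those of the 3 activating receptors that use it. Untreated LYVE1+CX3CR1+ libraries had ratios of 1.28, 1.27 and 1.25, and IC libraries 1.49, 1.49 and 1.47. MHCII+CD11c- libraries had 0.990, 0.939 and 0.832 without treatment and 1.1999, 0.943 and 1.39 after IC. MHCII+CD11c+ libraries had 0.854, 0.685 and 0.886 without treatment and 0.918, 1.16 and 1.07 after IC. Both LYVE1+CX3CR1+ groups were tight and above all untreated libraries of the other subsets. Over the 3 subsets the ratio was 1.25-fold higher after IC (log2 difference 0.32, p = 0.00075, adjusted p = 0.00188, exact two-sided permutation test within subsets).

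**Figure D4:**
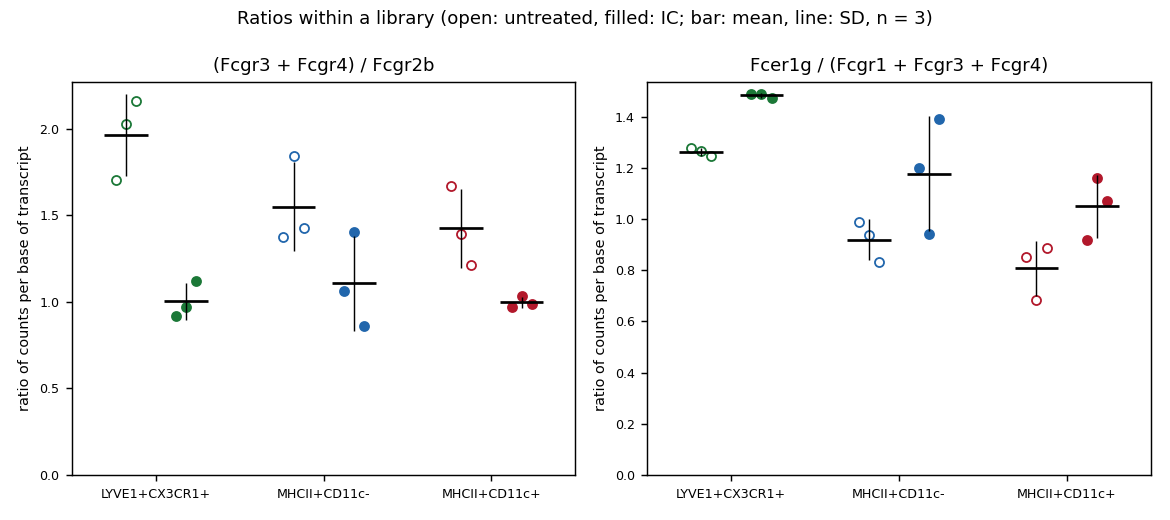
Ratios of counts per base of transcript (y axis, linear, from 0) in the 18 libraries by subset (x axis). The left panel has *Fcgr3* plus *Fcgr4* over *Fcgr2b*, without *Fcgr1*. The right panel has the signalling chain over all activating receptors, *Fcgr1* included. Open circles are untreated and filled circles IC libraries, with mean bars and SD lines (n = 3). At the *Fcgr2b* length used, the left ratio was near 1 in LYVE1+CX3CR1+ and MHCII+CD11c+ macrophages after IC and at least 1.21 in all untreated libraries.

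Genes that act with the receptors were read from lists chosen with earlier results of these data known, and are given as counts. Of all genes, 0.464%, 1.06% and 0.673% were called after IC in LYVE1+CX3CR1+, MHCII+CD11c- and MHCII+CD11c+ macrophages, and 6.21% over the mean. A count of 0 in a short list is near these shares within a subset. Of 23 tested genes of signalling downstream of activating receptors, 0 were called after IC in LYVE1+CX3CR1+ macrophages by edgeR, and the list medians were 0.02, -0.13 and 0.00 on the log2 scale in LYVE1+CX3CR1+, MHCII+CD11c- and MHCII+CD11c+ macrophages. *Fgr*, a Src family kinase, was higher by 2.07 on the log2 scale in the MHCII+CD11c- subset (SE 0.29, adjusted p = 0.00104). Of 19 tested ITIM receptors and inhibitory signalling genes, 0 were called after IC in any subset, with medians of -0.07, 0.06 and 0.09. Over the mean of the 3 subsets, *Pirb*, an inhibitory receptor with ITIMs, was called higher (0.46, SE 0.11, adjusted p = 0.0151), as was *Ptpn6*, the phosphatase SHP-1 (0.34, SE 0.10, adjusted p = 0.0482). In LYVE1+CX3CR1+ macrophages *Fcgr2b* was called and no other listed inhibitory gene was. With 0.464% of all genes called there, that 0 does not set *Fcgr2b* apart from the list.

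Of 11 ITAM receptors and adaptors other than *Fcer1g*, 0, 1 and 2 were called higher after IC in LYVE1+CX3CR1+, MHCII+CD11c- and MHCII+CD11c+ macrophages, namely *Clec4e* (Mincle, which also signals through FcRγ) in both MHCII+ subsets and *Trem1* in MHCII+CD11c+ macrophages. *Clec4e* was higher by 1.42 (SE 0.34, adjusted p = 0.0364) and 2.00 (SE 0.31, adjusted p = 0.00117) on the log2 scale. Of 27 tested interferon response genes, 0, 3 and 4 were called, all higher, with medians of 0.20, 0.55 and 0.62. The log2 fold change of *Irf7*, a regulator of interferon genes, was 1.34 for the MHCII+CD11c- subset (adjusted p = 0.0355), 1.42 for the MHCII+CD11c+ subset (adjusted p = 0.0171) and 0.53 for the LYVE1+CX3CR1+ subset (adjusted p = 0.708, edgeR). *Fcgr1* is itself inducible by interferon. Of 12 complement genes, 0, 1 and 1 were called higher, *Itgax* in MHCII+CD11c- and *Vsig4*, a complement receptor of resident macrophages, in MHCII+CD11c+ macrophages, and of 6 genes of IgG recycling none was called in any subset by edgeR. Of 7 tested Fc receptor-like genes, *Fcrls* was called lower in MHCII+CD11c- macrophages (-1.56, SE 0.25, adjusted p = 0.00125).

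The genes nearest to each member over the 6 group means of log2 CPM were sought among the 4919 tested genes whose mean log2 CPM reached 5, by the root mean square difference after centring, and are a description with 6 points each. Nearest to *Fcgr1* were *Cacna1d* (0.119), *Oas1a* (0.211) and *Ifi205* (0.253), of which the latter 2 are interferon-inducible, and nearest to *Fcgr4* were *Il1rn* (0.364), *Helz2* (0.384) and *Zbp1* (0.453). *Fcgr2b* lay nearest to *Icam1* (0.0443), *Hspa8* (0.117) and *Hspa5* (0.119), and *Fcer1g* to *Hsd17b12* (0.0487), *Atp2a2* (0.0618) and *Ssbp4* (0.0687). *Fcgr3*, which varied least on the log2 scale, lay nearest to *Tcf25* (0.0223), *Coa5* (0.0433) and *Ppp3r1* (0.0483). *Fcgrt* lay nearest to Mir8114 (0.0665), a row whose gene lies inside an exon of *Glul* on the same strand so that their reads cannot be told apart, *Eef2k* (0.0802) and *Stom* (0.0814). The median difference of all genes from a member ran from 0.286 for *Fcgr3* to 1.41 for *Fcgr4*.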

How the data were processed

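Per the labels and the methods of the study, total RNA of sorted macrophages was made into stranded libraries and sequenced in pairs. The authors used Trim Galore for trimming, HISAT2 for alignment to mm10 and featureCounts for counting, and the deposited values are raw counts for each gene symbol. Versions, annotation and strand setting are not given in the sources used here. The 18 separate count files were used, and a combined table with equal values was not. From the counts, TMM factors and quasi-likelihood tests (edgeR 4.0.16, R 4.3.3) were computed over all 18 libraries and 6 groups. The filterByExpr function (minimum count 10, minimum total 15) kept 10550 genes. P-values were adjusted by Benjamini-Hochberg within a comparison. The SE was the size of the log2 fold change divided by the square root of F. Intervals cover 95%. CPM values are counts over the library total of the genes kept by the filter, scaled by the TMM factors. Per-length values used the median length of the annotated coding (CCDS) transcripts of GENCODE M21 (GRCm38): 2589 bases for *Fcgr1*, 1578 for *Fcgr2b*, 1347 for *Fcgr3*, 1256 for *Fcgr4*, 674 for *Fcer1g* and 1770 for *Fcgrt*. Ratios were tested by exact permutation of labels within strata, with adjustment over 5 tests. Tests were first run on simulated data. A figure legend of the study gives 3 mice for each plotted point of a subset, and counts different mice for its points. That legend does not name the IC libraries, and the labels do not link libraries to animals. P-values measure the spread between these libraries. A member was at the floor in a group with at most 3 counts in each library. The floor covers counting error only, whereas intervals of fold changes include the spread between libraries. Named genes were the members, up to 4 called genes of each list by smallest adjusted p or else the 2 highest, the 3 genes nearest to each member, and sorting genes; some listed genes are not reported here. The mean over subsets was added after seeing the data. Members and lists were chosen with earlier results of these data known. Alternatives used DESeq2 1.42.0, sva 3.50.0, other filters and samples, and a replicate block.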

Additional observations from a re-analysis of the deposited data

How the results depend on the processing

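The 2 smallest libraries, thin counts of *Fcgr4*, unknown strand and multi-mapping settings, the shared run of *Fcgr2b* and *Fcgr3*, and 3 libraries per group limit these values, and bulk RNA holds transcripts of other leukocytes. Counts of members called kept within 1.5 times of the values given except as follows, and the cause was not tested. Between MHCII+ subsets without treatment, 0 became 1 both under a minimum of 10 counts per library and without the 2 smallest libraries, and leaving out 1 library gave 0 to 1, as it did after IC. For IC in LYVE1+CX3CR1+ macrophages leaving out 1 library gave 1 to 2. For IC in MHCII+CD11c- macrophages 1 became 0 in the fit to the libraries compared and without the 2 smallest libraries. For IC in MHCII+CD11c+ macrophages 1 became 4 with DESeq2, and 2 with no filter on low counts and in the fit to the libraries compared. For LYVE1+CX3CR1+ against MHCII+CD11c+ after IC, 2 became 1 under the minimum of 10 counts, a filter that removes *Fcgr4*.

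Values of uncalled members near 0 changed sign. *Fcgr3* between untreated MHCII+ subsets was -0.0059 under that minimum, -0.0103 in the fit to the libraries compared, and -0.0815 to 0.0980 when 1 library was left out, while *Fcgr4* was -1.05 to 0.0025. *Fcgrt* after IC in MHCII+CD11c- macrophages was 0.0091 with DESeq2 size factors, 0.0058 with the DESeq2 test, 0.0108 in the fit to the libraries compared and -0.12 to 0.11 when 1 library was left out, and for the MHCII+CD11c+ subset -0.12 to 0.14. After IC, LYVE1+CX3CR1+ against MHCII+CD11c- gave -0.0230 for *Fcgr2b* with 1 surrogate variable, -0.0641 without the 2 smallest libraries and -0.0620 to 0.17 when 1 library was left out, and -0.0126 to 0.10 for *Fcgr3*, and against MHCII+CD11c+ gave -0.14 to 0.0404 for *Fcgr1*. The activating to inhibitory ratio of MHCII+CD11c+ against MHCII+CD11c- was 0.0461 without the 2 smallest libraries.

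Replicate numbers did not mark a shared pool in the labels. Of 18 same-numbered pairs within a treatment, 1 had a correlation of deviations over 0.1 (median 0.036), though 17 of 18 libraries deviated most with their own number. The replicate block left the counts of members called unchanged except for LYVE1+CX3CR1+ against MHCII+CD11c- after IC (3 to 2, *Fcgr1* with adjusted p = 0.0536), and turned *Fcgrt* after IC in MHCII+CD11c- macrophages to 0.00059.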
